A study of Mus musculus with 12 samples.

Results

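Luminal progenitor markers were taken as the rows of 10 gene symbols, whatever their values: Kit, Aldh1a3, Cd14, Tspan8, Plet1, Folr1, Lurap1l, Trf, Mfge8 and Wfdc18. All 10 were among the 53735 gene symbols of the deposited count table, and all 10 were among the 18236 genes tested. RNA was sequenced from live epithelial cells of the mouse mammary gland, sorted by CD24 and CD49f, surface proteins that separate the luminal from the basal layer. The 12 libraries form 4 groups of 3: MMTVRANK luminal, WT luminal, MMTVRANK basal and WT basal. In MMTVRANK animals the promoter of the mouse mammary tumour virus drives Rank, a receptor of the TNF receptor family that activates NF-kB and is encoded by Tnfrsf11a. The series asks about Rank activation, mammary tumours and senescence. Strain, age and treatment are not given in the sources used here. Nothing in the labels ties replicates to separate mice, so p-values measure only the spread among libraries, which may be technical.

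The inner, luminal layer of the mammary duct holds hormone-sensing cells, which carry the oestrogen and progesterone receptors, and progenitors of the milk-secreting alveolar cells, which mostly lack them. The progenitors are known for the receptor Kit, for aldehyde dehydrogenase activity and for the transcription factor Elf5, which also drives alveolar development. Several of their markers, such as Trf, Mfge8 and Wfdc18, encode proteins made in larger amounts during pregnancy and lactation. Sorted luminal cells are a mixture of both types, and in bulk libraries fewer cells of a type and less RNA per cell cannot be told apart.

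The upstream sequences of 4 of the 10 genes are shown, chosen by their results among the genes with a matched promoter sequence. Cd14 and Folr1, also far higher in luminal cells, had no matched sequence. Plet1, Wfdc18 and Kit were far higher in luminal than in basal cells, and Tspan8 was the member that fell in MMTVRANK luminal cells. RefSeq promoter sequences of build GRCm38.p6 were matched for 6 of the 10 by symbol, each at its most upstream start. Each run below is the plus strand, 5′ to 3′, beginning 250 bases before the RefSeq start and ending at that start or before the first exon base of the gene in the deposited table; the Tspan8 run lies inside the deposited span of the gene, downstream of an earlier first exon. Capitals mark matches on either strand to AGGAAG, a core of the ETS family to which Elf5 belongs, or to TGANTCA, the AP-1 motif.
Plet1, chr9:50494275-50494524: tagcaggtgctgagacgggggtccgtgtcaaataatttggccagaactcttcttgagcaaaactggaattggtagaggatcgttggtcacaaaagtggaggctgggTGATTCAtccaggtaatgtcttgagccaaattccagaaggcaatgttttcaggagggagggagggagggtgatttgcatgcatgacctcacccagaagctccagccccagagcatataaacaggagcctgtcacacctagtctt
Wfdc18, chr11:83708754-83709003: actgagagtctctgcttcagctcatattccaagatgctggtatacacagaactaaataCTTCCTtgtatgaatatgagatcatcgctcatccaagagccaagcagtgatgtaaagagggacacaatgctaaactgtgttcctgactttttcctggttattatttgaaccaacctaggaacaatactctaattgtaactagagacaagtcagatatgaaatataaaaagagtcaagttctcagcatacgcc
Kit, chr5:75574737-75574915: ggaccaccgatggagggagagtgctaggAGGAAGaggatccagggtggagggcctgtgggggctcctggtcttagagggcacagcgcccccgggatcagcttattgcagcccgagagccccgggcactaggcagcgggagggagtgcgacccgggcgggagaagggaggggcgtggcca
Tspan8, chr10:115817034-115817270: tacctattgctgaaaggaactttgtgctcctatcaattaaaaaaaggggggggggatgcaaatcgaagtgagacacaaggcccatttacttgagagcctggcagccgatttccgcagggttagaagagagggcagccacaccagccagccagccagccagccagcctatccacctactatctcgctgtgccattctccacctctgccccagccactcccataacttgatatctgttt

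The letters AGGAAG occurred once in the 250 bases before the start of Kit, Wfdc18 and Mfge8, at −222, −192 and −184. The same letters occurred in 29.5% of all 32851 promoter windows of that length. TGANTCA occurred once before Plet1, at −144, against 6.7% of all windows. Neither TTCNNNGAA, a STAT motif, nor an NF-kB motif spelled GGG, any 2 bases and TTTCC occurred in the windows of the 6 genes; on either strand they occurred in 7.0% and 1.4% of all windows. No match to the 4 motifs was present in the windows of Tspan8 and Lurap1l. The motifs do not overlap one another in the sequences shown. A match describes letters in a window and not a bound site.

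Total counts lay between 12459547 and 15069578 per library. The titles of the libraries fitted their markers: summed pan-luminal markers lay between 10591 and 25277 CPM (the count scaled by library size and TMM factor) in the 6 luminal libraries and between 1723 and 2441 CPM in the 6 basal ones, and summed basal markers between 905 and 1506 CPM in luminal and between 28288 and 36043 CPM in basal libraries. For the WT replicate 2 pair, the cell subtype field of the labels names the opposite population to the titles, which were used. Tnfrsf11a, which the transgene should raise, was at 319, 156 and 238 CPM in MMTVRANK luminal replicates 1, 2 and 3, against 6.36, 90.8 and 9.91 CPM in WT luminal replicates. In basal cells it was at 415, 129 and 218 CPM in MMTVRANK, against 73.7, 158 and 65.3 CPM in WT. The library labelled WT basal replicate 2 was thus above MMTVRANK basal replicate 2. WT luminal replicate 2 was below every MMTVRANK luminal library, but far above the other WT luminal libraries. Both libraries labelled WT replicate 2 were thus high for their genotype label, and the genotype directions given here take that label as it stands. Leukocyte markers summed to 1155 CPM in MMTVRANK luminal replicate 3, against 130 to 163 CPM in the remaining 5; Lcp1 of that list was itself higher in WT luminal than basal cells, at a log2 fold change of 3.99 (SE 0.31). Their sum in basal libraries was 236 CPM in MMTVRANK replicate 3, against 31.5 to 83.7 CPM in the remaining 5. Fibroblast and adipocyte markers summed to 3001 CPM in WT basal replicate 1, against 501 to 838 CPM in the remaining 5 basal libraries. Genotype values without the libraries labelled WT replicate 2, and without MMTVRANK luminal replicate 3, follow the account of the single genes.

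**Figure D1:**
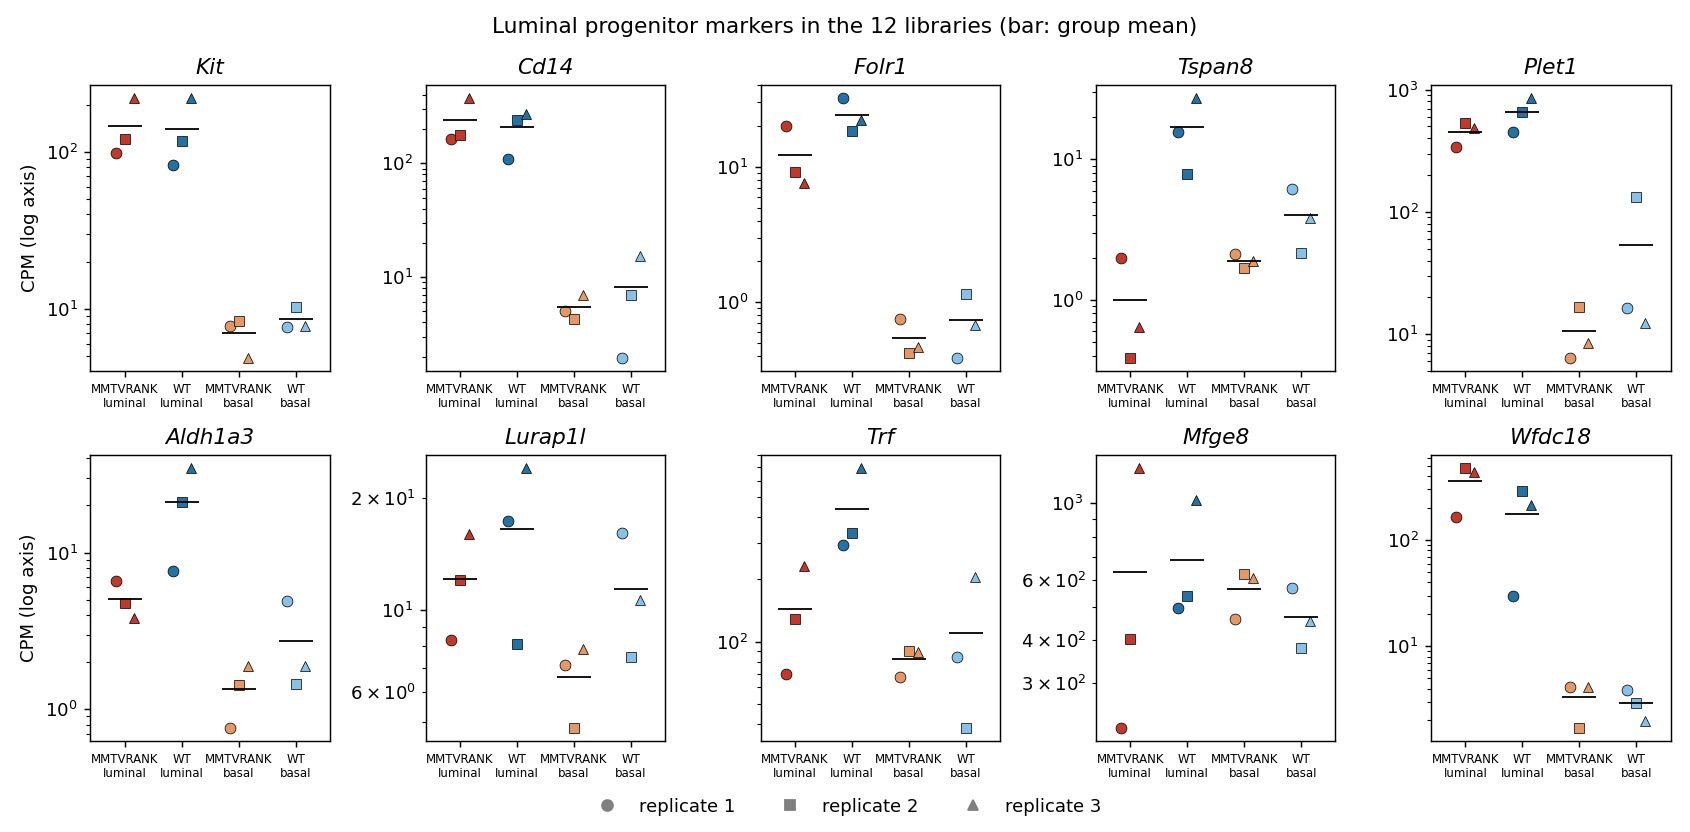
CPM of each luminal progenitor marker (log axis) in the 12 libraries, by group, with 1 symbol per library and a bar at the group mean. Kit, Cd14, Folr1, Plet1, Aldh1a3 and Wfdc18 lie higher in every luminal than in every basal library of the same genotype, and Tspan8 lies lower in every MMTVRANK luminal than in every WT luminal library.

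The first question was how far these genes separate the 2 sorted populations. In MMTVRANK cells 6 of the 10 were called higher in luminal than in basal cells and none lower, and in WT cells 8 of the 10 were called higher and none lower. Of all 18236 genes tested, 16.1% were called higher in MMTVRANK luminal cells and 18% in WT luminal cells, and 33.2% and 38.1% were called in either direction (edgeR quasi-likelihood test, Benjamini-Hochberg adjusted p under 0.05). The median log2 fold change of the 10, luminal over basal, was 3.14 in MMTVRANK and 3.28 in WT, beside 0.05 and −0.07 over all genes. In MMTVRANK, 7 of the 10 had every luminal library above every basal one, which held for 27.7% of all genes, beside 26.8% with the reverse order and 54.5% with either. In WT 8 did so, against 22.3% of all genes, beside 23.8% with the reverse order and 46.1% with either.

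**Figure D2:**
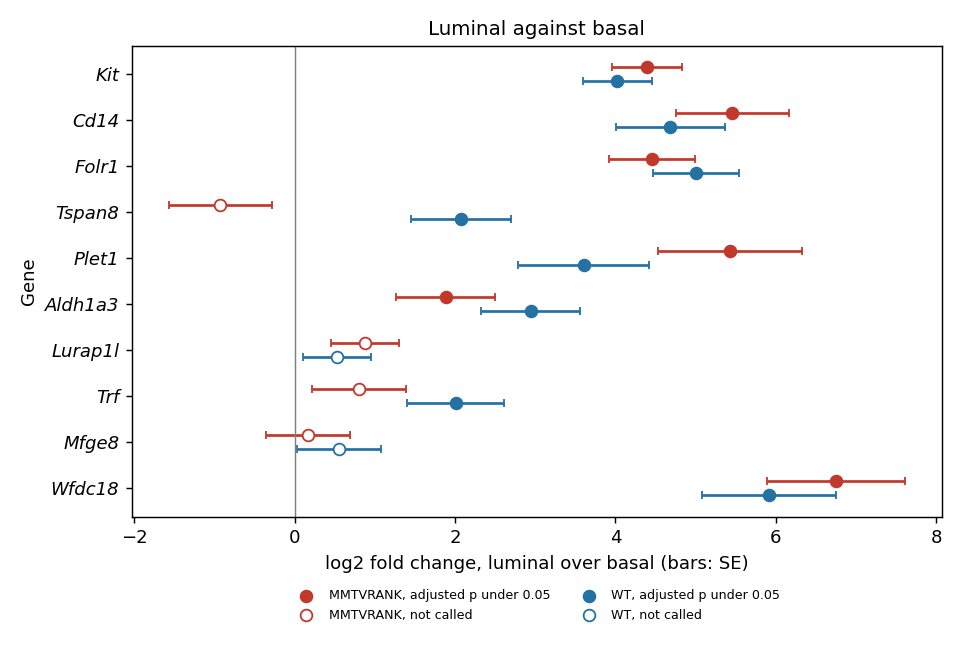
Log2 fold change of luminal over basal cells for each gene in MMTVRANK (upper of each pair) and WT (lower), with SE bars and filled symbols at an adjusted p under 0.05. Wfdc18 has the highest values, 6.75 in MMTVRANK and 5.92 in WT, and Tspan8 is at −0.92 in MMTVRANK and 2.07 in WT.

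Kit, the receptor tyrosine kinase for stem cell factor, lies on chromosome 5 (build GRCm38.p6), 75574916 to 75656722 on the plus strand. The 6 luminal libraries held 98.5, 121 and 221 CPM in MMTVRANK replicates 1, 2 and 3, and 82.4, 118 and 221 CPM in WT replicates. The 6 basal libraries held 7.79, 8.35 and 4.86 CPM in MMTVRANK and 7.73, 10.3 and 7.79 CPM in WT. Every luminal library was above every basal one in both genotypes, and the luminal values of MMTVRANK and WT lay over each other. The log2 fold change of luminal over basal was 4.39 (SE 0.44, adjusted p = 1.65e-05) in MMTVRANK and 4.03 (SE 0.43, adjusted p = 2.80e-05) in WT (edgeR, n = 3 per group). Mast cells also carry Kit: their 10 markers summed to 1.36, 1.34 and 2.87 CPM in MMTVRANK luminal replicates 1, 2 and 3, against 0.299, 0.355 and 1.40 CPM in WT luminal replicates, so that the sum, like Kit, was highest in replicate 3 of each genotype. Of the 10, 4 (Cpa3, Tpsab1, Ms4a2 and Mrgprb1) had no count in any luminal library, and the 2 that were tested had a median luminal genotype value of 2.30, neither called. Basal libraries, which held far less Kit, had mast cell sums of 1.66, 3.71 and 5.88 CPM in MMTVRANK replicates 1, 2 and 3. In WT basal replicates the sums were 2.47, 0.504 and 6.85 CPM. The part of mast cells in the Kit levels was not tested.

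No genotype difference in Kit was called. MMTVRANK over WT it had 0.07 (SE 0.37, adjusted p = 0.993) on the log2 scale in luminal and −0.30 (SE 0.40, adjusted p = 1.00) in basal cells. Same-numbered luminal libraries held similar Kit levels: the ratio MMTVRANK over WT was 1.20 for replicate 1, 1.03 for replicate 2 and 1.00 for replicate 3. Over 10082 genes, the deviations of these libraries from their group means correlated at 0.525, 0.125 and 0.392. The luminal value turned to −0.39 without MMTVRANK luminal replicate 3, the library high in leukocyte markers, and to −0.044 without the libraries labelled WT replicate 2. Its ligand Kitl ran the other way between populations, at −2.49 (SE 0.34, adjusted p = 0.000141) luminal over basal in MMTVRANK and −1.55 (SE 0.33, adjusted p = 0.00283) in WT.

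Of 20 genes of Kit signalling, all 20 were tested. Luminal over basal, 6 were called higher and 9 lower in MMTVRANK, and 7 higher and 8 lower in WT, where the median was −0.37. The kinase gene Lyn and the phosphatase gene Ptpn6 were higher in WT luminal cells, at 2.03 (SE 0.25) and 2.00 (SE 0.26), and Plcg1 and the inhibitor Spred1 were lower, at −2.45 (SE 0.22) and −2.15 (SE 0.24). None of the 20 was called between genotypes in luminal cells, where the median was −0.09 beside 0.03 over all genes.

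Cd14, the co-receptor that presents bacterial lipopolysaccharide to Tlr4, lies on chromosome 18 from 36725074 to 36726736 on the minus strand. Among luminal libraries the levels were 164, 178 and 376 CPM in MMTVRANK and 109, 241 and 271 CPM in WT. Among basal libraries the levels were 4.99, 4.30 and 6.97 CPM in MMTVRANK and 1.93, 6.99 and 15.4 CPM in WT. The genotypes overlapped in both populations, and the populations did not overlap in either genotype. Luminal over basal the log2 fold change was 5.46 (SE 0.71) in MMTVRANK and 4.68 (SE 0.68) in WT, and MMTVRANK over WT it was 0.21 (SE 0.57, adjusted p = 0.965) in luminal cells. Cd14 is also a gene of monocytes and macrophages: its highest library, MMTVRANK luminal replicate 3, was the one with 1155 CPM of leukocyte markers, and without it the luminal genotype value was −0.31. MMTVRANK basal replicate 3, with 236 CPM of these markers, had the highest Cd14 level of the MMTVRANK basal libraries, 6.97 CPM. Without it the basal genotype value was −0.79, against −0.57 with it. WT basal replicates 2 and 3 held as much Cd14 or more, 6.99 and 15.4 CPM, with only 31.5 and 83.7 CPM of these markers. The part of leukocytes in the Cd14 reads of these libraries was not tested.

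The 14 other genes of lipopolysaccharide recognition were all tested. Luminal over basal, 5 were called higher in MMTVRANK and 6 in WT, none lower, with medians of 0.82 and 0.80. Tlr4, the signalling receptor, was higher at 3.20 (SE 0.39) in MMTVRANK and 3.36 (SE 0.40) in WT, and Irak2, Irak4 and Tirap, which relay the signal, were higher in WT at 2.45, 0.97 and 1.43. None was called between genotypes in luminal cells.

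Folr1, a folate receptor held in the membrane by a lipid anchor, lies on chromosome 7 from 101858331 to 101870788 on the minus strand. Luminal levels were 20.1, 9.14 and 7.56 CPM in MMTVRANK and 32.2, 18.4 and 22.0 CPM in WT. Basal levels were 0.756, 0.422 and 0.470 CPM in MMTVRANK and 0.387, 1.15 and 0.685 CPM in WT, from 5 to 16 counts. MMTVRANK luminal replicate 1 lay above WT luminal replicate 2, so the luminal genotypes overlapped by these libraries of different number. Every same-numbered pair was lower in MMTVRANK, at ratios of 0.626, 0.498 and 0.344 for replicates 1, 2 and 3. A pairing by number was not established. On the log2 scale the difference was −0.98 (SE 0.44), with an unadjusted p of 0.0452 and an adjusted p of 0.402 in edgeR, and did not pass. Luminal over basal it was called at 4.45 (SE 0.54) in MMTVRANK and 5.00 (SE 0.54) in WT.

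Of 18 other genes of folate uptake and use, 17 were tested: luminal over basal, 3 were called higher and 4 lower in MMTVRANK, and 4 higher and 6 lower in WT. The folate carrier Slc19a1 was lower in WT luminal cells at −1.65 (SE 0.35), as were the folate enzymes Mthfd1 at −1.34 (SE 0.18) and Aldh1l2 at −3.73 (SE 0.54). None was called between genotypes in luminal cells, where the median was −0.01.

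Plet1, a small glycoprotein of the cell surface, lies on chromosome 9 from 50494525 to 50505482 on the plus strand. The 6 luminal libraries held 337, 529 and 488 CPM in MMTVRANK and 448, 653 and 855 CPM in WT. The 6 basal libraries held 6.35, 16.8 and 8.46 CPM in MMTVRANK and 16.3, 132 and 12.4 CPM in WT. The library labelled WT basal replicate 2 was alone: its Plet1 level was 10.6-fold that of WT basal replicate 3, while its pan-luminal markers, at 2441 CPM, were the highest of the basal libraries by a far smaller margin. Same-numbered luminal libraries were each lower in MMTVRANK, at ratios of 0.753, 0.810 and 0.571, but the groups overlapped and the genotype was not called, at −0.53 (SE 0.74, adjusted p = 0.894). Luminal over basal the log2 fold change was 5.42 (SE 0.90) in MMTVRANK and 3.61 (SE 0.82) in WT, and 5.51 in WT without that library. In basal cells MMTVRANK over WT was −2.35 (SE 0.79, adjusted p = 0.767), and −0.45 without it. Plet1 shares 261 exonic bases with Plet1os on the opposite strand, which held 801 counts over all libraries, and the counting used no strand option.

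Aldh1a3, which makes retinoic acid from retinal and accounts for much of the aldehyde dehydrogenase activity of luminal progenitors, lies on chromosome 7 from 66390890 to 66427517 on the minus strand. Among luminal libraries the levels were 6.53, 4.73 and 3.81 CPM in MMTVRANK and 7.63, 21.0 and 34.6 CPM in WT. Among basal libraries the levels were 0.756, 1.43 and 1.88 CPM in MMTVRANK and 4.87, 1.44 and 1.88 CPM in WT. Every MMTVRANK luminal library was below every WT luminal one, but the gap between MMTVRANK replicate 1, from 96 counts, and WT replicate 1, from 102 counts, lay within the counting intervals of 5.29 to 7.98 CPM and 6.22 to 9.27 CPM (95% Poisson, counting error only). MMTVRANK over WT the log2 fold change in luminal cells was −2.07 (SE 0.59, adjusted p = 0.163 in edgeR), which did not pass, and DESeq2 gave −2.12 with an adjusted p of 0.0129. Over all alternatives the adjusted p ran from 0.00137, with no filter on low counts, to 0.801. The upper end came with WT replicate 2 placed by the cell subtype field, against its markers.

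Aldh1a3 was called higher in luminal than in basal cells in both genotypes, at 1.88 (SE 0.62, adjusted p = 0.0328) in MMTVRANK and 2.94 (SE 0.62, adjusted p = 0.00257) in WT (edgeR). The MMTVRANK call ended without MMTVRANK luminal replicate 1 or 2 or MMTVRANK basal replicate 1 or 2, at adjusted p between 0.0588 and 0.116, and with limma-voom (adjusted p = 0.186). Of 23 other genes of retinoic acid metabolism and reception, 17 were tested: luminal over basal, 3 were called higher and 7 lower in each genotype. The retinal reductase gene Dhrs3 was higher at 2.73 (SE 0.24) in WT, as was the retinoic acid carrier Crabp2 at 1.54 (SE 0.25). The related dehydrogenase gene Aldh1a1 was lower at −7.02 (SE 1.09), as was Rdh10, which makes retinal, at −2.04 (SE 0.28). None of the 17 was called between genotypes in luminal cells, where their median was 0.28 and Aldh1a1 had 4.30 (SE 1.06, adjusted p = 0.111).

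Whether Rank activation changes these markers was asked by setting MMTVRANK beside WT luminal cells. Tspan8, a tetraspanin of the cell surface, was the only member called, and it fell: in MMTVRANK luminal libraries it stood at 1.97, 0.384 and 0.644 CPM (29, 6 and 11 counts), against 15.8, 7.87 and 27.4 CPM (211, 111 and 431 counts) in WT luminal libraries. The groups did not overlap, and the highest MMTVRANK library had a counting interval of 1.322 to 2.835 CPM against 6.48 to 9.48 CPM in the lowest WT library. The log2 fold change was −4.08 (SE 0.69, n = 3 per group, adjusted p = 0.0421 in edgeR), which is to 0.0589 of the WT level. Of all 18236 genes, 0.159% were called lower, 0.0932% higher and 0.252% in either direction. Tspan8, Aldh1a3 and Trf, 3 of the 10, had every MMTVRANK luminal library below every WT one, which held for 6.82% of all genes; none had every one above, which held for 10.1%, and either order held for 16.9%.

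The fold change of Tspan8 moved less between settings than its adjusted p. DESeq2 gave −4.16 at adjusted p = 6.10e-08, and edgeR with no filter on low counts −4.09 at adjusted p = 2.25e-09. The SE of Tspan8 was 0.61 with no filter, a fit that gave several other members far smaller SEs than the one reported. The call was kept in 4 of the 12 fits with 1 library left out, where the log2 fold change ran from −5.06 without MMTVRANK luminal replicate 1 to −3.62 without WT luminal replicate 3 and the adjusted p from 0.0178 to 0.120. It ended without MMTVRANK luminal replicate 2 or 3, any MMTVRANK basal replicate, WT luminal replicate 1 or 3, or WT basal replicate 1, with limma-voom (adjusted p = 0.0738), in a fit of the 2 luminal groups alone (adjusted p = 0.0988) and with WT replicate 2 placed by the cell subtype field (adjusted p = 0.632). Without both libraries labelled WT replicate 2 it held, at −4.43 with adjusted p = 0.0240. In the same luminal libraries, summed proliferation genes were at 1311 to 2805 CPM in MMTVRANK against 304 to 659 CPM in WT, and pan-luminal markers at 10591 to 15866 CPM in MMTVRANK against 17545 to 25277 CPM in WT. The sort gene Cd24a was at 594 to 826 CPM in MMTVRANK luminal libraries against 979 to 2237 CPM in WT, −1.01 on the log2 scale (SE 0.37, adjusted p = 0.271), and the sort gene Itga6, which encodes CD49f, had −0.08 (SE 0.23). The part of these shifts in the Tspan8 result was not tested.

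**Figure D3:**
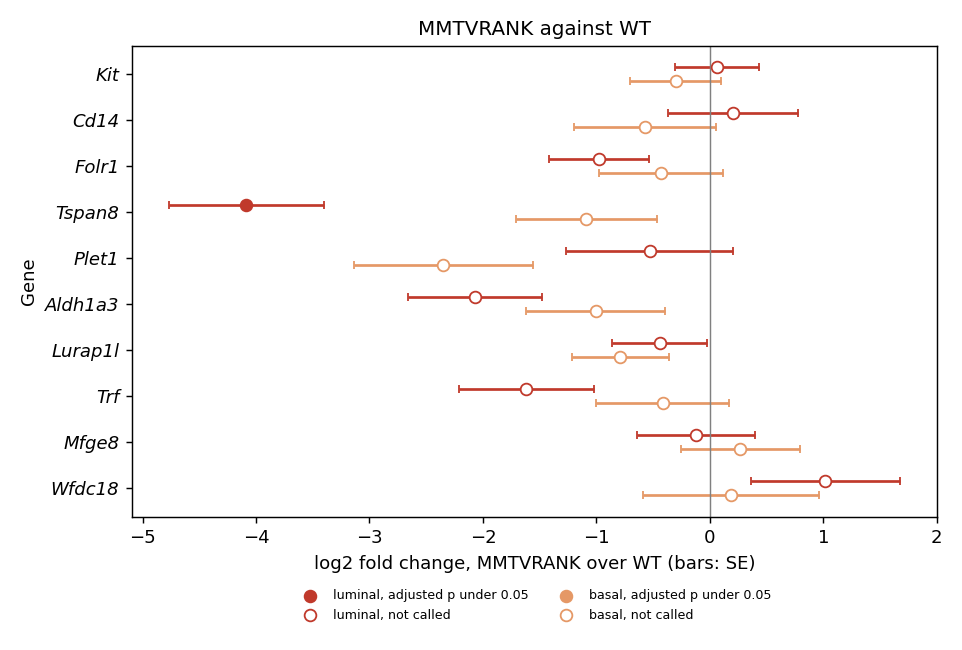
Log2 fold change of MMTVRANK over WT for each gene in luminal (upper of each pair) and basal cells (lower), with SE bars and filled symbols at an adjusted p under 0.05. Tspan8 in luminal cells, at −4.08, is the single filled symbol.

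Between the populations Tspan8 had values of opposite sign in MMTVRANK and WT, a difference that did not pass its own test. Basal levels were 2.12, 1.69 and 1.88 CPM in MMTVRANK and 6.11, 2.16 and 3.85 CPM in WT. MMTVRANK luminal replicates 2 and 3 were thus below every basal library, while every WT luminal library was above every basal one. Luminal over basal the log2 fold change was −0.92 (SE 0.64, adjusted p = 0.304) in MMTVRANK and 2.07 (SE 0.62, adjusted p = 0.0193) in WT; the WT call ended without WT luminal replicate 3, or without WT basal replicate 2 or 3. The test of the difference itself gave −2.998 (SE 0.89), with an unadjusted p of 0.00542 and an adjusted p of 0.447, and did not pass. No member passed that test, and 0.00548% of all genes did; 1 of the 10, Tspan8, had an unadjusted p under 0.05, as did 1410 of all genes. In basal cells MMTVRANK over WT Tspan8 had −1.09 (SE 0.62, adjusted p = 0.976), with every MMTVRANK library below every WT one. That gap was narrow: MMTVRANK basal replicate 1 was at 2.12 CPM (28 counts) and the library labelled WT basal replicate 2 at 2.16 CPM (30 counts). Their counting intervals, 1.407 to 3.06 CPM and 1.458 to 3.085 CPM, overlapped. The gene lies on chromosome 10 from 115816832 to 115849893 on the plus strand, and 4 of its exonic bases overlap an opposite gene model with 1 count over all libraries.

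Of 28 other tetraspanin genes, 26 were tested and none was called between genotypes in luminal cells, where the median was −0.22 beside 0.03 over all genes. Luminal over basal, 9 were called higher and 4 lower in MMTVRANK, and 9 higher and 6 lower in WT. Tspan1 and Cd82 were higher in both, at 6.71 (SE 0.45) and 4.43 (SE 0.33) in MMTVRANK and 5.86 (SE 0.42) and 4.42 (SE 0.32) in WT. Their luminal genotype values were −0.52 (SE 0.33) and −0.73 (SE 0.28). Tspan5 and Tspan18 were lower in WT luminal cells, at −2.95 (SE 0.32) and −6.01 (SE 0.66).

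Lurap1l, related to an adaptor of the actin cytoskeleton, lies on chromosome 4 from 80910646 to 80955628 on the plus strand. Luminal levels were 8.30, 12.02 and 16.0 CPM in MMTVRANK and 17.3, 8.09 and 24.0 CPM in WT. The 6 basal libraries held 7.11, 4.81 and 7.83 CPM in MMTVRANK and 16.1, 7.49 and 10.6 CPM in WT. The luminal libraries lay above the basal ones in MMTVRANK and overlapped them in WT. The population was not called in either genotype, at 0.88 (SE 0.43, adjusted p = 0.138) in MMTVRANK and 0.53 (SE 0.42, adjusted p = 0.353) in WT, nor was the genotype in luminal cells at −0.44 (SE 0.42). The genotype value ran from −0.77 without WT luminal replicate 2 to −0.13 without WT luminal replicate 3, and was −0.74 without MMTVRANK luminal replicate 3.

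Of the 3 secreted proteins, Trf encodes transferrin, the iron carrier, and lies on chromosome 9 from 103204001 to 103230444 on the minus strand. The 6 luminal libraries held 69.7, 128 and 233 CPM in MMTVRANK, against 294, 335 and 693 CPM in WT. Among basal libraries the levels were 67.7, 90.0 and 88.8 CPM in MMTVRANK, against 84.4, 38.0 and 206 CPM in WT. All MMTVRANK luminal libraries were below all WT luminal ones, and the ratio MMTVRANK over WT was 0.237, 0.384 and 0.336 for replicates 1, 2 and 3. The log2 fold change was −1.62 (SE 0.59, unadjusted p = 0.0202, adjusted p = 0.285 in edgeR), which did not pass; DESeq2 gave −1.67 at adjusted p = 0.0499. Luminal over basal it was 0.81 (SE 0.59, adjusted p = 0.330) in MMTVRANK and called at 2.01 (SE 0.60, adjusted p = 0.0225) in WT. The WT call ended without WT luminal replicate 3 or WT basal replicate 1 or 2, and also without both libraries labelled WT replicate 2 (1.77, adjusted p = 0.0574). The difference between those effects was −1.20 (SE 0.83, adjusted p = 0.793). Of its 3320 exonic bases 2108 are shared with a gene model on the same strand that had 0 counts throughout, and reads in shared bases may have been left out of the counts.

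Of 18 other genes of iron uptake and storage, 17 were tested, and luminal over basal 5 were called higher and 3 lower in each genotype. Ltf, the milk iron binder lactoferrin, was higher at 7.23 (SE 1.501) in MMTVRANK and 4.47 (SE 0.94) in WT, and the iron exporter Slc40a1 at 1.86 (SE 0.52) and 2.69 (SE 0.54). None was called between genotypes in luminal cells: Ltf had −3.76 (SE 0.91, adjusted p = 0.113) and the median was 0.16.

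Mfge8, a milk fat globule protein that bridges dying cells to phagocytes, lies on chromosome 7 from 79133768 to 79149060 on the minus strand. Among luminal libraries the levels were 222, 404 and 1266 CPM in MMTVRANK and 497, 537 and 1023 CPM in WT. Basal levels were 459.9, 623 and 606 CPM in MMTVRANK and 568, 379 and 454 CPM in WT. The luminal range enclosed the basal one in MMTVRANK, and the populations overlapped in WT. Luminal over basal Mfge8 had 0.16 (SE 0.52, adjusted p = 0.844) in MMTVRANK and 0.55 (SE 0.52, adjusted p = 0.444) in WT. Without MMTVRANK luminal replicate 3 the MMTVRANK value turned to −0.85. The luminal genotype value was −0.12 (SE 0.52), and −1.17 without that library.

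Of 11 other milk fat globule proteins and Mfge8 receptors, all 11 were tested. Butyrophilin, Btn1a1, fell in MMTVRANK luminal cells at −3.37 (SE 0.52, adjusted p = 0.0387 in edgeR) and was the only one called. The median was −0.46. The mucin gene Muc1 was higher in luminal than in basal cells, at 3.99 (SE 0.74) in MMTVRANK and 4.84 (SE 0.75) in WT. The integrin gene Itgav, part of the Mfge8 receptor, was lower at −1.81 (SE 0.19) and −1.001 (SE 0.19), as was Edil3, a relative of Mfge8, at −3.04 (SE 0.76) and −5.00 (SE 0.90).

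Wfdc18, a small secreted protein of the whey acidic protein family, lies on chromosome 11 from 83709015 to 83711348 on the plus strand. Luminal levels were 164, 477 and 442 CPM in MMTVRANK, against 30.0, 289 and 215 CPM in WT. The 6 basal libraries held 4.16, 1.69 and 4.15 CPM in MMTVRANK and 3.87, 2.95 and 1.97 CPM in WT. The WT luminal libraries spread over a 9.62-fold range, the widest of any member within the luminal groups, with replicate 1 lowest, and the genotypes overlapped through MMTVRANK replicate 1. Same-numbered luminal libraries were each higher in MMTVRANK, by 5.45, 1.65 and 2.05 times for replicates 1, 2 and 3. The log2 fold change was 1.02 (SE 0.66, adjusted p = 0.639), which did not pass. It was 0.52 without WT luminal replicate 1 and 1.56 without WT luminal replicate 2, and did not pass without either. Luminal over basal it had the highest value of the 10 in both genotypes, 6.75 (SE 0.86, adjusted p = 0.000143) in MMTVRANK and 5.92 (SE 0.84, adjusted p = 0.000270) in WT.

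Of 14 other genes with a whey acidic protein domain, 7 were tested. Luminal over basal, 3 were called higher and 1 lower in MMTVRANK, and 2 higher and 3 lower in WT; the median in WT was 0.20 and the mean −0.23. Wfdc2 was higher at 7.88 (SE 0.71) in MMTVRANK and 6.81 (SE 0.66) in WT, while the antiprotease Slpi was lower in WT at −2.83 (SE 0.58). None was called between genotypes in luminal cells, where the median was 0.94.

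Counted between genotypes over all 10, 3 had positive and 7 negative values in luminal cells, with a median of −0.49 beside 0.03 over all genes, and 4 had an unadjusted p under 0.05 (Aldh1a3, Tspan8, Folr1 and Trf), as did 2183 of all genes. In basal cells 2 were positive and 8 negative, with a median of −0.50 beside 0.00 over all genes. None was called there by edgeR, DESeq2 or limma-voom; 1 had an unadjusted p under 0.05 in edgeR, as did 986 of all genes, and 0.00548% of all genes were called. Tspan8 alone had separated basal libraries, lower in MMTVRANK, by a gap that lay within the counting intervals. That order held for 4.52% of all genes. The reverse order, which no member had, held for 6.6%, and either for 11.1%. Negative genotype values were not particular to the members. Of 18 pan-luminal markers, 15 were negative in luminal cells, with a median of −0.58, and 15 in basal cells, with a median of −0.72.

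Leaving out libraries that stood apart moved several genotype values. Without both libraries labelled WT replicate 2, the luminal values were −0.044 for Kit, 0.33 for Cd14, −1.14 for Folr1, −0.53 for Plet1, −2.07 for Aldh1a3, −4.43 for Tspan8, −0.77 for Lurap1l, −1.78 for Trf, −0.27 for Mfge8 and 1.56 for Wfdc18, with Tspan8 called. Without MMTVRANK luminal replicate 3 they were −0.39 for Kit, −0.31 for Cd14, −0.77 for Folr1, −0.62 for Plet1, −1.93 for Aldh1a3, −3.89 for Tspan8, −0.74 for Lurap1l, −2.19 for Trf, −1.17 for Mfge8 and 0.82 for Wfdc18, with none called. Kit and Cd14 are the genes whose direction changed, Kit in both fits and Cd14 in the second. In basal cells, leaving out WT replicate 2 moved Plet1 to −0.44, against −2.35 with it, Trf to −0.81, against −0.41, Kit to −0.14, against −0.30, Mfge8 to 0.15, against 0.27, and Folr1 to 0.060, against −0.43. None of the 10 was called in basal cells in that fit. WT basal replicate 1, high in fibroblast and adipocyte markers, had the highest WT basal level of Aldh1a3, Tspan8, Lurap1l, Mfge8 and Wfdc18. It had the lowest of Kit, Cd14 and Folr1. Over the fits with 1 library left out, the basal genotype value ran from −1.31 to −0.28 for Aldh1a3, −1.38 to −0.65 for Tspan8 and −1.01 to −0.45 for Lurap1l. The part of fibroblasts and adipocytes in these levels was not tested.

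**Figure D4:**
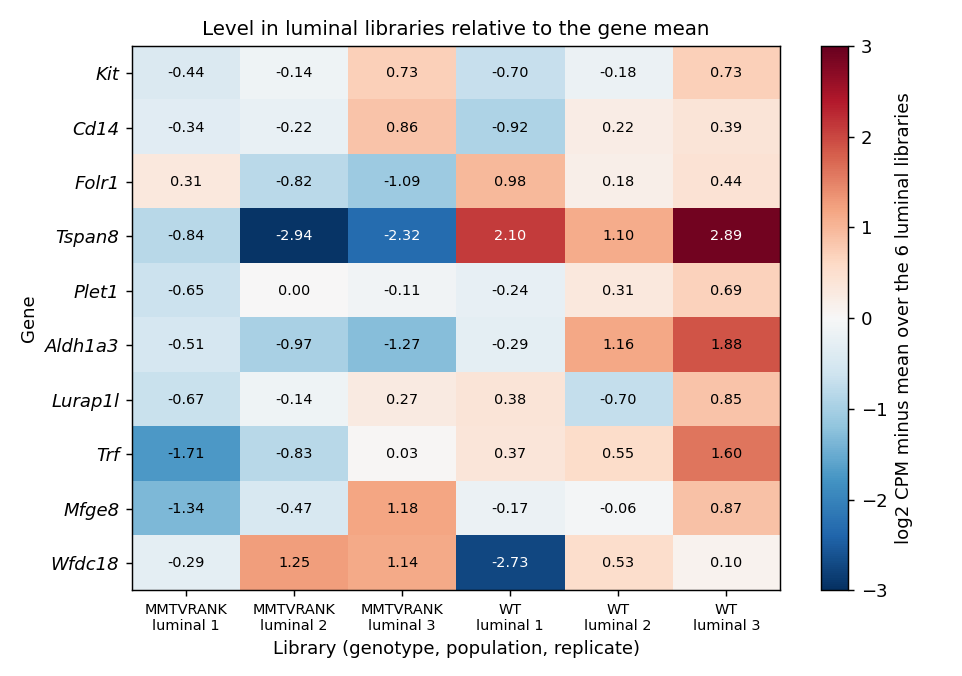
Log2 CPM of each gene in the 6 luminal libraries minus its mean over them, with the value printed in each cell (red above, blue below the mean). Tspan8 spans −2.94 to 2.89 and splits by genotype, Kit spans −0.70 to 0.73 and is highest in replicate 3 of both genotypes, and Wfdc18 is lowest, at −2.73, in WT replicate 1.

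Within the luminal libraries the markers fell into different patterns. The likeness of 2 genes was measured as the root mean square difference of their log2 CPM, each centred on its mean, over the 6 luminal libraries. Kit and Cd14 were the closest pair of the 45, at 0.24, and Kit and Plet1 followed at 0.45. Tspan8 and Wfdc18 were the furthest apart, at 3.20. Over all 12 libraries and 11106 candidate genes, those closest to Kit were Rab11fip1 at 0.42, Tmc4 at 0.51, Rbm47 at 0.53, Dapp1 at 0.54 and Vwf at 0.54. Vwf is an endothelial marker, and of the 10 endothelial markers 9 were called lower and 1 higher in luminal cells in each genotype. Those closest to Aldh1a3 were Lif at 0.66, Ntn1 at 0.66, Cry2 at 0.69, Aldoc at 0.70 and Pyroxd2 at 0.73. These distances are descriptions and share the luminal and basal split of the libraries.

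Levels between genes were compared per length, as CPM per kilobase of exon. In MMTVRANK luminal cells the order ran from Wfdc18 at 296 ± 141, Plet1 at 232 ± 52.0, Cd14 at 152 ± 75.4 and Mfge8 at 134 ± 119 through Trf at 43.3 ± 24.9 and Kit at 16.5 ± 7.31 to Folr1 at 5.35 ± 2.99, Lurap1l at 3.95 ± 1.25, Aldh1a3 at 1.09 ± 0.300 and Tspan8 at 0.588 ± 0.501 CPM per kilobase (SD, n = 3). In WT luminal cells Plet1 led at 335 ± 105, with Mfge8 at 146 ± 62.4, Wfdc18 at 146 ± 109, Trf at 133 ± 66.1 and Cd14 at 132 ± 54.7. Kit at 15.8 ± 8.07, Folr1 at 10.5 ± 3.12, Tspan8 at 9.998 ± 5.76, Lurap1l at 5.37 ± 2.61 and Aldh1a3 at 4.56 ± 2.92 CPM per kilobase followed. In both luminal groups 7 of the 9 neighbouring pairs overlapped between libraries. The 2 that stood apart were Kit over Folr1 and Lurap1l over Aldh1a3 in MMTVRANK, and Plet1 over Mfge8 and Cd14 over Kit in WT. In basal cells Mfge8 led, at 120 ± 19.1 CPM per kilobase in MMTVRANK and 99.5 ± 20.3 in WT, and Folr1 was last, at 0.239 ± 0.0787 in MMTVRANK and 0.323 ± 0.168 in WT, overlapping Aldh1a3 in both. Of the 9 neighbouring pairs, 4 overlapped in MMTVRANK basal and 7 in WT basal cells. Because reads in shared bases of Trf may be missing, its place in these orders may be too low.

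Of 25 other luminal progenitor and alveolar genes, 24 were tested. In MMTVRANK luminal cells 6 fell and none rose (Lalba, Spp1, Csn3, Btn1a1, Hey1 and Lcn2), with a median of −0.73; these falls were known from earlier results of the same libraries. Lalba, which completes lactose synthase, had −6.14 (SE 0.71, adjusted p = 0.00921 in edgeR) and the casein gene Csn3 had −4.69 (SE 0.60, adjusted p = 0.0286). Elf5, at 44.2 to 68.0 CPM in MMTVRANK luminal and 60.6 to 98.2 CPM in WT luminal libraries, had −0.40 (SE 0.63, adjusted p = 0.915). Luminal over basal Elf5 was called at 5.43 (SE 0.80) in MMTVRANK and 5.55 (SE 0.80) in WT. Of the 24, 13 were called higher and 4 lower in luminal cells in MMTVRANK, and 16 higher and 3 lower in WT, where Atp6v1b1, a proton pump subunit, had 5.44 (SE 0.50) and Sox10, a neural crest factor also known from mammary progenitors, had −1.88 (SE 0.23).

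Of 20 hormone-sensing markers, all 20 were tested, and 15 were called higher in luminal cells in MMTVRANK and 16 in WT, 1 lower in each. Foxa1 and Prlr led in WT at 7.80 (SE 0.54) and 7.396 (SE 0.69). None was called between genotypes in luminal cells, where 18 of the 20 had negative values and the median was −1.01. Their summed level was 2465 to 6354 CPM in MMTVRANK luminal libraries against 6871 to 12977 CPM in WT, without overlap (two-sided exact permutation test, p = 0.1, the smallest that 3 against 3 allows, and 0.378 after adjustment over 34 tests).

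**Figure D5:**
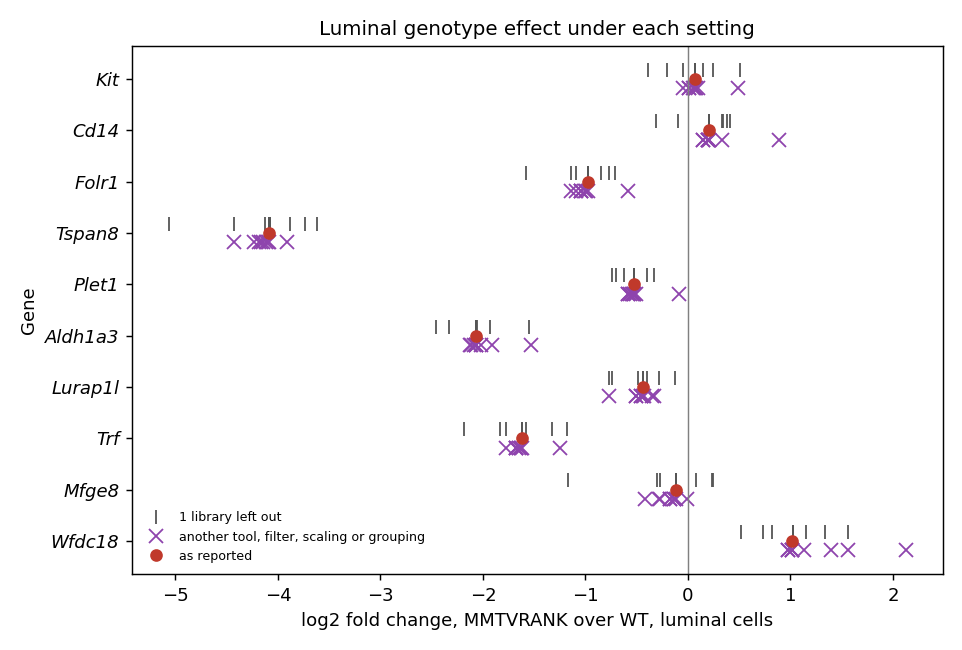
Log2 fold change of MMTVRANK over WT in luminal cells for each gene as reported (circle), with 1 library left out (ticks) and under another tool, filter, scaling or grouping (crosses). Tspan8 stays between −5.06 and −3.62. Aldh1a3, Trf, Folr1, Plet1 and Lurap1l stay below 0, and Wfdc18 stays above 0. Kit, Cd14 and Mfge8 lie on both sides of 0.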

How the data were processed

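Sorted cells gave stranded, low-input total RNA libraries, per the labels' protocols. STAR 2.6.1b aligned reads to GRCm38.p6 and Subread 1.5 assigned them, per the submitters' processing notes. The authors deposited raw read counts per gene symbol, made with featureCounts 1.5.2 on GENCODE M17 by largest exon overlap with no strand option, per the file headers. The deposited column of summed exon length gave levels per kilobase.

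Genes passing filterByExpr (count minimum 10) entered 1 robust quasi-likelihood model over all 12 libraries in edgeR 4.0.16 (R 4.3.3) with TMM scaling, tested on simulated data beforehand. Each SE was derived from the estimate and its F statistic. Adjusted p-values are Benjamini-Hochberg over all 18236 genes, with a threshold of 0.05. DESeq2 1.42.0 and limma 3.58.1 (voom), other filters, scalings and groupings, and fits without each library were alternatives. Summed list levels were compared by exact permutation tests. Intervals cover counting error only.

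Members and lists were chosen with earlier results of these data known. Besides members, the text names Tnfrsf11a, Elf5, Cd24a, Itga6, Kitl, up to 4 called genes of a list with the smallest p in a comparison, and the 5 genes closest to Kit and to Aldh1a3, among those of average log2 CPM 2 or more with a regular name. Hey1, Lcn2, the mast cell genes at 0 and values of list genes in a further comparison were chosen after their values were seen. Between luminal genotypes, 0 genes were called among pan-luminal, basal, leukocyte, mast cell, fibroblast and adipocyte, and endothelial markers by edgeR, and of 24 proliferation genes Pola1 and Tyms, both higher.

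Among the 66 pairs of libraries none was a duplicate: the lowest chi-square was 28.6 for each degree of freedom. The labels do not say what the shared replicate numbers mean. Over 10082 genes, deviations of same-numbered libraries from their group means correlated at 0.525, 0.125 and 0.392 between luminal genotypes, 0.278, 0.144 and 0.199 between populations in MMTVRANK and 0.277, 0.168 and 0.343 in WT. These all exceed 0.1, and on that ground alone same-numbered luminal libraries were set side by side. Differently numbered libraries were not compared, so a pairing was not established and same-numbered ratios are descriptions only. Between basal genotypes the values were 0.404, −0.071 and 0.0915, although a pairing through the luminal libraries would link these too. The numbers were not taken to pair them. Ratios of same-numbered luminal libraries did not all go the same way for Cd14, at 1.50, 0.738 and 1.38 for replicates 1, 2 and 3. Nor did they for Lurap1l, at 0.480, 1.49 and 0.666, or for Mfge8, at 0.446, 0.752 and 1.24. The share of all genes whose ratios went the same way was not counted.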

Additional observations from a re-analysis of the deposited data

How the results depend on the processing

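Of the 10 genes, 1 was called between genotypes in luminal cells; 4 were called with no filter on low counts, 3 by DESeq2, and 0 by limma-voom, with only the luminal groups fitted, or with WT replicate 2 placed by the cell subtype field, and 0 to 1 with 1 library left out. In basal cells 1 was called with no filter, and of the differences between the effects 3 were. The no-filter fit gave Kit, Cd14, Plet1, Trf, Mfge8 and Wfdc18 near-equal luminal genotype SEs of 0.22 to 0.23. With the filter these were 0.37 to 0.74. For Aldh1a3, Tspan8, Folr1 and Lurap1l the SEs were 0.40 to 0.61 with no filter and 0.42 to 0.69 with it. Calls with no filter therefore take little account of the spread of the first-named genes. With WT replicate 2 placed by the cell subtype field, 0 were called between populations in WT and 0 in MMTVRANK. Over all genes, the luminal genotype count of 46 (17 higher) became 1353 (934 higher) with no filter, 800 (485 higher) by DESeq2, 29 (4 higher) by limma-voom, 103 (37 higher) with the replicate block, 81 (38 higher) without both libraries labelled WT replicate 2, 7 in the fit of 2 groups and 0 by the subtype field. No member's call changed with the replicate block, where Tspan8 had −4.19 (adjusted p = 0.0174 in edgeR) in luminal cells.

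Some values changed sign; the cause was not tested. Without both libraries labelled WT replicate 2, Kit had −0.044 between luminal genotypes, Folr1 0.060 between basal genotypes and Plet1 −0.083 for the difference of effects. Placement by the subtype field puts the WT replicate 2 library with 20221 CPM of pan-luminal markers among the basal libraries. The one with 2441 CPM goes among the luminal libraries. In that fit Wfdc18 had −4.88 between basal genotypes and −0.25 luminal over basal in WT. The difference of effects in that fit was 1.23 for Aldh1a3, 2.95 for Folr1 and 0.094 for Trf. Mfge8, luminal over basal in MMTVRANK, had −0.19 by limma-voom and −0.10 with the replicate block.

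With 1 library left out, values between luminal genotypes ran from −0.39 to 0.51 for Kit, −0.31 to 0.41 for Cd14 and −1.17 to 0.24 for Mfge8. Between basal genotypes they ran from −1.03 to 0.28 for Cd14, −0.73 to 0.061 for Folr1, −0.81 to 0.43 for Trf and −0.017 to 0.51 for Wfdc18. Mfge8 in MMTVRANK, luminal over basal, ran from −0.85 to 0.56. The difference of effects ran from −0.055 to 0.84 for Kit, −0.075 to 1.24 for Cd14, −0.083 to 2.31 for Plet1 and −1.40 to 0.0047 for Mfge8. Summed levels, MMTVRANK minus WT, ran from −83.7 to 217 CPM for basal markers and −0.328 to 512 CPM for leukocyte markers in luminal cells, and from −16.1 to 86.0 CPM for leukocyte markers in basal cells. Tspan8 rested on as few as 6 counts in a luminal library and Folr1 on 5 in a basal one.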
